A study of Mus musculus with 3 samples.

Results

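The genes Lmna, Lmnb1 and Tmpo encode proteins of the nuclear lamina and envelope, and they were examined here as targets of the method that is built from such proteins. The members were the 984 fragments between GATC sites whose middles lay in 3 gene bodies or within 50 kb of them, of 6415372 fragments in each profile. In mm9 the bodies were taken as chromosome 3 88285000 to 88314000 for Lmna, chromosome 18 56867000 to 56913000 for Lmnb1 and chromosome 10 90610000 to 90638000 for Tmpo, coordinates rounded to 1 kb. With their flanks they held 319, 352 and 313 fragments. The members were chosen by gene name and position, not by their values, though with earlier results of these data known.

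DamID reports DNA near a protein through a fusion to Dam, a bacterial enzyme that methylates the adenine of GATC. Per the labels, mouse embryonic fibroblasts of the wild-type C57BL/6 strain received murine retroviruses with a Dam-Lamin A, a Dam-Lap2b or a Dam-only cassette, 1 sample in each of 3 groups. Cells of all groups, the control included, thus expressed a Dam transgene; its promoter, the species of the fused cDNAs and the age of the embryos were not given in the sources used here. The control entered only as the presumed reference of both profiles, whose values are log2 ratios of fusion to reference reads. Values are given for the profile, list or library labelled Dam-Lamin A or Dam-Lap2b. In sequence listed for 1 label only, lists and profiles of the same label did not go together. In the 16943 bins of 10 kb inside the Dam-Lamin A list only, the Dam-Lamin A profile averaged −0.04 and the Dam-Lap2b profile 0.46. In the 6436 bins inside the Dam-Lap2b list only, they averaged 0.37 and 0.04. With 1 sample a group, no difference has a replicate check and no p-value is given; SDs are over fragments, which are not replicates. No expression was measured, so the cell type could not be checked against markers.

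Lamins are filament proteins that line the inner nuclear membrane. Lmna encodes lamin A and its splice form lamin C, and Lmnb1 encodes lamin B1, which keeps a lipid anchor. Tmpo encodes the LAP2 proteins, of which Lap2b spans the inner nuclear membrane and binds lamins and chromatin. Sequence held at the lamina is mostly gene-poor and little transcribed, and it forms long lamina-associated domains. Unfused Dam is known to methylate open chromatin more than closed chromatin.

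DamID can resolve a gene start only where GATC sites lie near it, so 1 listed start sequence is shown for each profiled protein's gene. For each gene it is the listed window with the higher coordinates. Whether that window holds the main start was not checked. Both sequences run from 250 bases before to 50 after a RefSeq start, 5′ to 3′ on the minus strand, with GATC in capitals. The build is GRCm38.p6, later than that of the profiles. Both strands read alike at GATC. The windows are chr3:88503303-88503602 for Lmna and chr10:91171570-91171869 for Tmpo.
Lmna: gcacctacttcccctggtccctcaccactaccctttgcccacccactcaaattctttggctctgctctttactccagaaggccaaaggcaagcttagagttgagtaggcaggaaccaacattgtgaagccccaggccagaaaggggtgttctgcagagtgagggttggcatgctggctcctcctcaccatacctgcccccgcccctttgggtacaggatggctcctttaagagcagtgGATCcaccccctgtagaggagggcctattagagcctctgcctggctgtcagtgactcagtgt
Tmpo: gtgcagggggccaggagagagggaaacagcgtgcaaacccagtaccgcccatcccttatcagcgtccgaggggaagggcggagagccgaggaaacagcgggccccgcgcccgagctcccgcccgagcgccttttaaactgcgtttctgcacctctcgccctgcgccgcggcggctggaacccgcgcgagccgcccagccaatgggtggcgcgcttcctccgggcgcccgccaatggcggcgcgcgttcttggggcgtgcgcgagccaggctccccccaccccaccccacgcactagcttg
The Lmna window held 1 GATC, at bases 239 to 242, and 1 CG dinucleotide. The Tmpo window held no GATC and 36 CG dinucleotides, and 71.7% of its bases were G or C, against 56.3% in the Lmna window. Among 32851 RefSeq start windows of this length, 48.0% held a GATC and the median GC content was 52.7%. A second start window of Lmna also held 1 GATC and a second window of Tmpo none, with 7 and 17 CG dinucleotides. Of the 3 genes, 2 had an entry among the RefSeq start windows, and Lmnb1 had none there. An mm9 annotation was not used here, so gene starts, exons and introns were not placed on the fragments.

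None of the 3 gene bodies overlapped a domain of either list. The share of the genome or of genes covered by either list is not given here, so this count has no background. Lmna lay deepest in unlisted sequence. The nearest domain of the Dam-Lamin A list ended 982 kb below its body (chromosome 3 87013986 to 87302502, 289 kb long), and the next began 2.21 Mb above it (90523239 to 92814253, 2.29 Mb long). In the Dam-Lap2b list the nearest domains ended 979 kb below and began 2.20 Mb above. The gap between the domains that flank Lmna was thus 3.22 Mb wide in the former list and 3.21 Mb in the latter.

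Lmnb1 lay 359 kb above the end of a Dam-Lamin A domain of 647 kb (chromosome 18 55861124 to 56507703). In the Dam-Lap2b list the corresponding domain ended 344 kb away and was 315 kb long (56208614 to 56523252). The next domains on the other side began 1.76 Mb and 1.92 Mb away. Within 500 kb of Lmnb1, body included, the Dam-Lamin A list covered 13.5% of the sequence and the Dam-Lap2b list 14.9%.

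Tmpo was the gene nearest to a domain. It sat in a gap of only 287 kb in the Dam-Lamin A list and 317 kb in the Dam-Lap2b list. The domain above it began 68.5 kb from the body in the former (chromosome 10 90706522 to 91531790) and 72.9 kb in the latter (90710948 to 91156136), and the domain below ended 190 kb and 216 kb away. Listed sequence made up 66.4% and 62.8% of the sequence within 500 kb. The upper domains had mean values of 1.85 ± 1.40 (SD, 2030 fragments) in the Dam-Lamin A profile over its own list and 1.60 ± 1.10 (1125 fragments) in the Dam-Lap2b profile over its own. The 3 genes therefore covered a range from a wide unlisted region to a narrow gap among domains.

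**Figure D1:**
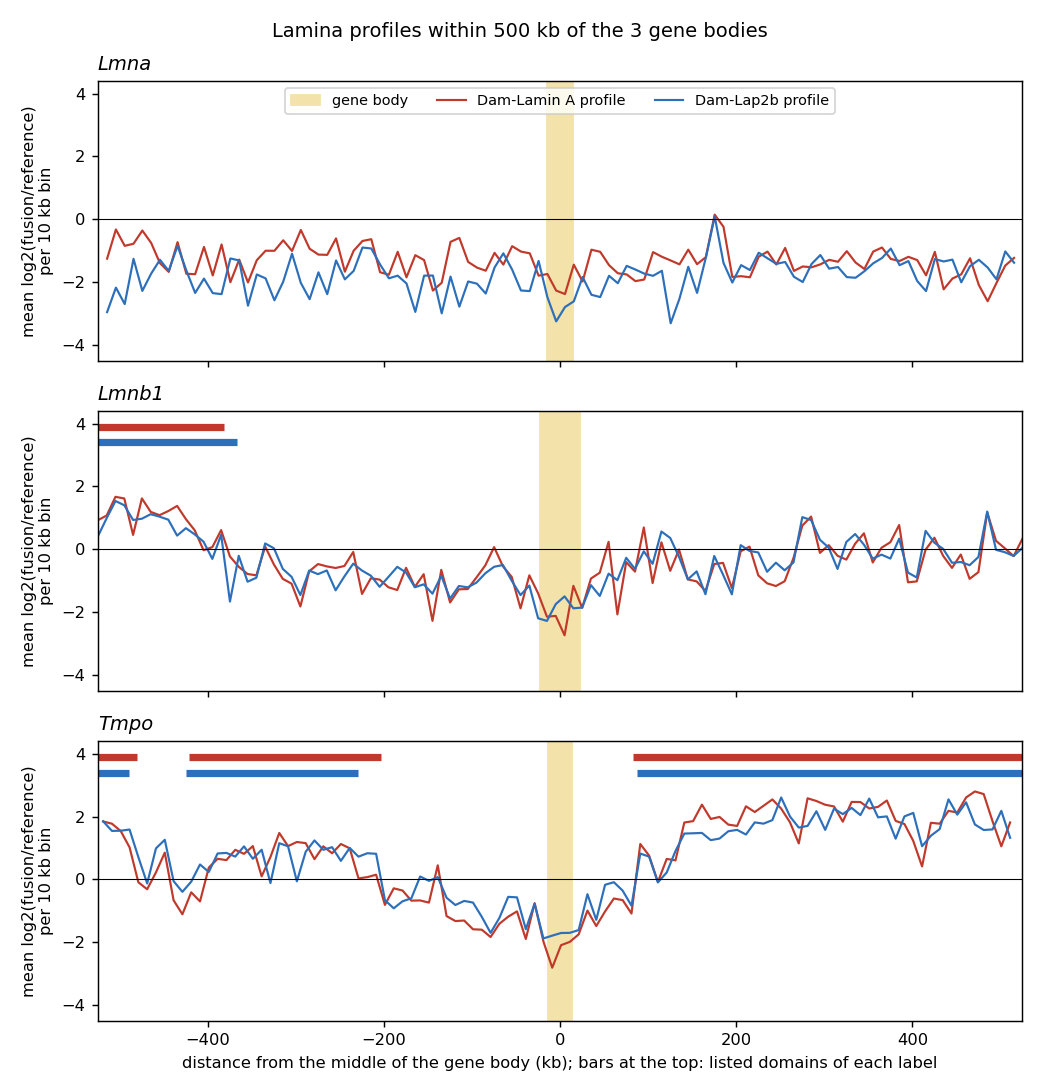
Mean log2(fusion/reference) per 10 kb bin (vertical axis) against distance from the middle of each gene body in kb, for the Dam-Lamin A (red) and Dam-Lap2b (blue) profiles, with the gene body shaded and listed domains as bars of the same colours. The Lmna region has 1 bin of 104 above 0 in each profile, while the Tmpo body lies at the bottom of a dip between bins above 0.

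All 3 bodies were low in both profiles. The Lmna body averaged −2.00 ± 1.05 (SD over 68 fragments) in the Dam-Lamin A profile, with fragments from −4.62 to 0.08. In the Dam-Lap2b profile it averaged −2.90 ± 1.23, from −6.32 to −0.83. The Lmnb1 body averaged −1.96 ± 1.58 (123 fragments, −6.18 to 2.89) and −1.91 ± 0.99 (−6.55 to 1.34). The Tmpo body averaged −2.24 ± 1.40 (66 fragments, −5.20 to 2.67) and −1.69 ± 0.80 (−4.30 to −0.34).

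The order of the genes differed between the profiles. From low to high it was Tmpo, Lmna and Lmnb1 for Dam-Lamin A, where the 3 means spanned less than 1 SD over fragments. For Dam-Lap2b it was Lmna, Lmnb1 and Tmpo. There the Lmna mean lay below the Lmnb1 mean by less than 1 SD of either gene's fragments. It lay below the Tmpo mean by more than the SD of the Tmpo fragments and by less than that of its own. The means of Lmnb1 and Tmpo differed by less than 1 SD.

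Values below 0 were found in 67 of 68 Lmna fragments, 112 of 123 Lmnb1 fragments and 63 of 66 Tmpo fragments in the Dam-Lamin A profile, where 39.4% of all fragments were below 0. In the Dam-Lap2b profile they were found in 68, 120 and 66, against 37.3% of all fragments. Among 255936 bins of 10 kb, with a mean of 0.20 ± 1.31 (SD) in the Dam-Lamin A profile and 0.29 ± 1.24 in the other, few were as low as the bodies. In the Dam-Lamin A profile 3.58% of bins were lower than the Lmna body, 3.96% lower than the Lmnb1 body and 1.68% lower than the Tmpo body. In the Dam-Lap2b profile the shares were 0.342%, 3.58% and 5.81%. The bins are smaller than the bodies and hence more variable.

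How far the low values reached was read from flanks and surroundings. Around Lmna the flanks of 50 kb averaged −1.43 and −2.03 in the Dam-Lamin A and Dam-Lap2b profiles, and the 500 kb on each side, flanks included, averaged −1.32 and −1.78. The body mean was lower than these surroundings by differences of −0.68 and −1.12. Of the 104 bins of 10 kb in the region, those of the body included, 10 were lower than the body mean in the Dam-Lamin A profile and 5 in the Dam-Lap2b profile. Lmna was thus among the lowest sequence of a region that was low almost throughout. The 1 bin above 0 lay 176 kb above the middle of the body, with 0.15 and 0.09, and no domain was listed there.

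The mean of the Lmnb1 body differed more from its surroundings. Its flanks averaged −0.94 and −1.18 and its surroundings −0.32 and −0.34, so that the body was lower than the surroundings by differences of −1.64 and −1.57. Of the 106 bins of its region, 5 and 2 were lower than the body mean. The lowest of the 106 bins within 500 kb lay inside the body in each profile, at −2.74 and −2.28. The nearest bins above 0 in both profiles were 335 kb below and 115 kb above the middle of the body.

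Tmpo showed the steepest change. Its flanks averaged −1.32 and −0.97, while its surroundings averaged 0.71 and 0.70, so the body differed from the surroundings by −2.95 and −2.39. Of the 104 bins of its region, 1 and 5 were lower than the body mean. Of the 104 bins within 500 kb, 67 lay above 0 in both profiles, the nearest of them 139 kb below and 91.0 kb above the middle of the body. The lowest bin of the Dam-Lamin A profile (−2.81) lay in the body, and that of the Dam-Lap2b profile (−1.88) lay 19.0 kb from its middle, just outside the body.

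A log2 ratio can be low through few fusion reads or through many reference reads. Reads were recovered from the ratios of both profiles as the lowest integers that fitted, and are lower bounds. The Dam-Lamin A library had 139338290 recovered reads or 54.9 per kb of the genome. The Dam-Lap2b library had 151508562 or 59.7 per kb, and the reference 153293494 or 60.4 per kb. The median fragment held 10, 10 and 7 reads, so single fragments were imprecise.

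At all 3 genes the reference was the library with the most reads. The Lmna body held 551 reference reads per kb, 9.12 times the genome's value and more than 99.8% of bins. It held 144 Dam-Lamin A reads and 72.1 Dam-Lap2b reads per kb, 2.63 and 1.21 times their genome values. The Lmna body therefore had low ratios with fusion reads above the genome's average. The Lmnb1 body held 199 reference reads per kb (3.29 times the genome), with 53.9 Dam-Lamin A and 57.1 Dam-Lap2b reads per kb, or 0.983 and 0.958 times. The Tmpo body held 230 reference reads per kb (3.80 times), with 43.6 and 89.4 fusion reads per kb, or 0.794 and 1.50 times. Among the 3 bodies, only the Dam-Lamin A value at Tmpo was more than 10% below the genome's own value, while the reference was at least 3.29 times its genome value in each.

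The reference also rose most from flanks to body. At Lmna the reads per kb of the body were 3.04 times those of the flanks in the reference, 2.58 times in the Dam-Lamin A library and 2.02 times in the Dam-Lap2b library. At Lmnb1 the factors were 2.63, 1.54 and 1.81. At Tmpo they were 1.81, 1.12 and 1.68. The 2 fusions thus differed in order between the genes, Dam-Lamin A rising more at Lmna and Dam-Lap2b more at Lmnb1 and Tmpo.

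**Figure D2:**
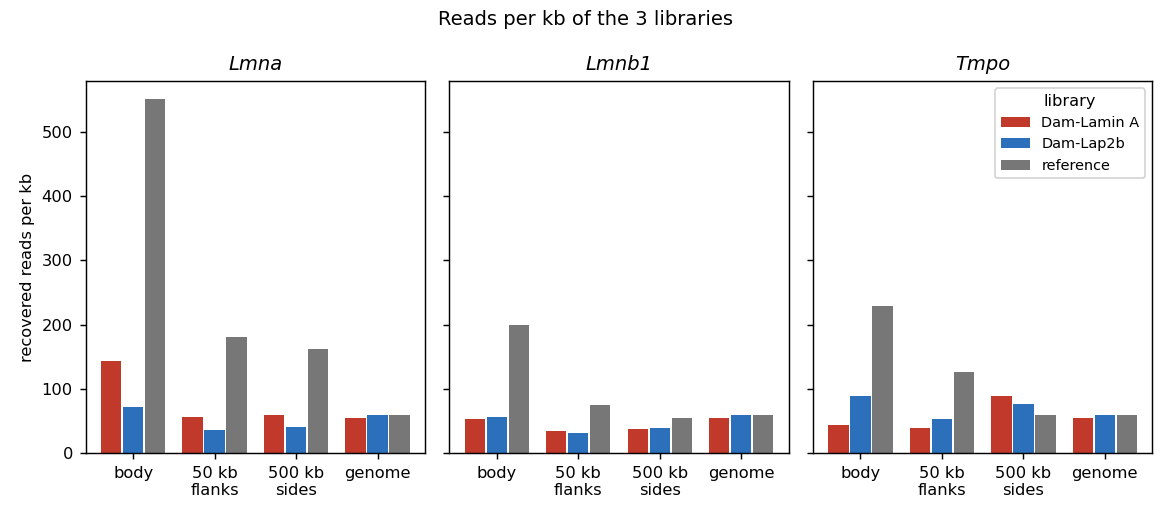
Recovered reads per kb (vertical axis, from 0) in the gene body, the 50 kb flanks, the 500 kb on each side (flanks included) and the whole genome, for the Dam-Lamin A (red), Dam-Lap2b (blue) and reference (grey) libraries, 1 sample each. The reference bar is the highest in every body, from 199 reads per kb at Lmnb1 to 551 at Lmna.

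The retroviral cassettes carry the coding sequences of lamin A and Lap2b. Reads from such a cassette could align to Lmna in the Dam-Lamin A library and to Tmpo in the Dam-Lap2b library, while Lmnb1 is in neither cassette. The profiles were therefore compared at each gene. Over the Lmna body the Dam-Lamin A profile was higher, by a mean of 0.90 ± 1.62 (SD over 68 fragments), and in 5.42% of all 10 kb bins the difference was larger. Bins with a larger difference also lay within 500 kb of Lmna, outside its flanks and on both sides. The body was thus not alone there in its size of difference, though most bins of that region had a smaller one. Over the Tmpo body the Dam-Lap2b profile was higher (Dam-Lamin A minus Dam-Lap2b, −0.55 ± 1.71, 66 fragments), with 22.0% of bins lower. Over the Lmnb1 body the difference was −0.05 ± 1.74 (123 fragments). At both Lmna and Tmpo the profile labelled for the gene's own protein was the higher. Since lists and profiles of 1 label did not go together, an exchange of the profile labels was not tested, and with exchanged labels this direction would turn at both genes. The flanks differed in the same direction, by 0.60 ± 1.65 at Lmna and −0.35 ± 1.50 at Tmpo. At Lmnb1 the flanks differed by 0.24 ± 1.51. Of the 10 kb bins the SD of this difference was 0.63.

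Reads gave the same order. Of the fusion reads of the Lmna body, 66.7% were Dam-Lamin A reads (4101 against 2051, 95% Clopper-Pearson interval 65.5 to 67.8%), against 61.0% (60.0 to 62.1%) in its flanks and 47.9% in the genome. At Tmpo the share was 32.8% (1188 against 2436 reads, 31.2 to 34.3%), and in its flanks 42.2% (41.1 to 43.2%). At Lmnb1 it was 48.5% (2450 against 2596 reads, 47.2 to 49.9%) in the body and 52.7% (51.4 to 53.9%) in the flanks. These intervals cover counting error only, since amplified reads are not independent molecules. The share of the body lay outside the interval of the flanks at all 3 genes.

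Single fragments past a difference of 1 were counted among those with at least 20 reads over the 3 libraries. The Dam-Lamin A profile was higher by more than 1 in 30 of 63 Lmna body fragments (47.6%) and in 64 of 162 flank fragments (39.5%), against 20.9% of all such fragments. It was lower by more than 1 in 26 of 54 Tmpo body fragments (48.1%) and in 55 of 166 flank fragments (33.1%), against 24.3% of all. In the Lmnb1 body 20 of 97 fragments were past 1 and 28 were past −1, or 20.6% and 28.9%, near those backgrounds. In the opposite direction there were 6 fragments in the Lmna body (9.52%) and 2 in the Tmpo body (3.70%). Within 500 kb of Lmna, the body left out and the flanks included, 566 of 1707 fragments (33.2%) were past 1, also above the background, and the mean difference was 0.46. Within 500 kb of Tmpo 360 of 1694 fragments (21.3%) were past −1, below the background, and the mean difference was 0.00. The excess of higher Dam-Lamin A values at Lmna was thus also seen over its surroundings. As a share of fragments, that of lower values around Tmpo was seen in the body and flanks but not over the wider surroundings. Single 10 kb bins with a lower difference than the Tmpo body nevertheless lay outside its flanks, on both sides. Most bins of that region had a higher difference than the body.

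**Figure D3:**
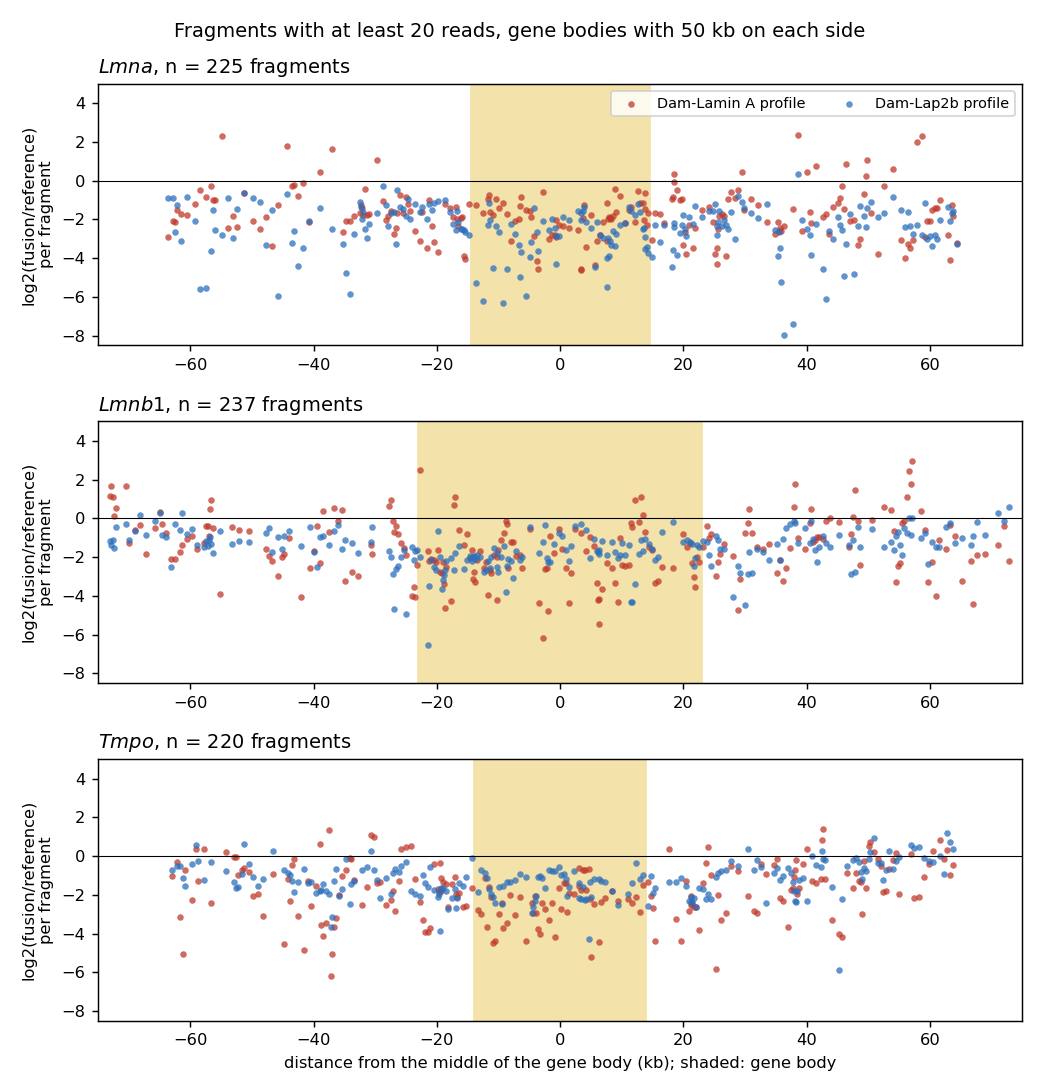
log2(fusion/reference) of each fragment with at least 20 reads (vertical axis) against distance from the middle of the gene body in kb, for the Dam-Lamin A (red) and Dam-Lap2b (blue) profiles, with the body shaded. In the Lmna and Tmpo bodies no such fragment lies above 0 in either profile, and the Lmnb1 body has 6 above 0 in the Dam-Lamin A profile.

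No fragment of the Lmna body held more Dam-Lamin A than reference reads. The highest value among its 63 fragments with at least 20 reads was −0.46, while its flanks had 16 such fragments above 0 and reached 2.33. Likewise no fragment of the Tmpo body held more Dam-Lap2b than reference reads; the highest value was −0.34, and the flanks reached 1.19. Across the genome 57.3% of fragments with at least 20 reads were above 0 in the Dam-Lamin A profile and 60.0% in the Dam-Lap2b profile. The Lmnb1 body had 10 of 123 fragments with more Dam-Lamin A than reference reads. These counts also depend on the reference, which held 9.12 times its genome value in the Lmna body, 3.80 times in the Tmpo body and 3.29 times in the Lmnb1 body.

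As log2 ratios set against their own flanks, the Dam-Lap2b values fell further in the Lmna body than the Dam-Lamin A values. In reads per kb the body was above its flanks in both fusions, at 2.58 times for Dam-Lamin A and 2.02 times for Dam-Lap2b. The reference, shared by both ratios, was at 3.04 times. A ratio below its flanks therefore does not show that a fusion had few reads there. In the lowest 5 kb of the body (88285000 to 88289999, 9 fragments) the Dam-Lamin A profile averaged −1.21 and the Dam-Lap2b profile −3.03. In the next 5 kb (10 fragments) they averaged −1.72 and −4.10. The flanks averaged −1.43 in the Dam-Lamin A profile and −2.03 in the Dam-Lap2b profile. These 2 segments held 912 and 1411 Dam-Lamin A reads, 96 and 221 Dam-Lap2b reads, and 2887 and 4229 reference reads. Between 88300000 and 88304999 the order was the opposite, with −2.83 and −1.86. In the 2 uppermost segments the differences were again above 0, at 1.15 and 0.98.

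A few fragments carried much of the Dam-Lamin A reads at Lmna. The fragment at 88286411 to 88287644 held 588 Dam-Lamin A, 25 Dam-Lap2b and 1989 reference reads. The fragment at 88293417 to 88294569 held 465, 21 and 1408 reads. The fragment at 88289969 to 88290505 held 345, 9 and 812 reads and had the largest difference of the body, 5.18, a size passed by 0.207% of all fragments with at least 20 reads. These 3 fragments, picked by their reads, held 34.1% of the Dam-Lamin A reads of the body, 26.8% of the reference reads and 2.68% of the Dam-Lap2b reads. The mean difference of the body was 0.72 without them and 0.97 without the 3 fragments with the most Dam-Lap2b reads. Each removal picks fragments by the reads of 1 library, which by its construction moves the difference away from that library.

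The largest differences around Lmna were not in its body. At 88336758 to 88337694 in the upper flank the difference was 5.92, with 57 Dam-Lamin A, 0 Dam-Lap2b and 168 reference reads. At 88335514 to 88336061 it was 5.62, with 46, 0 and 252 reads. The longest run of neighbouring fragments above 1 was also in that flank, with 10 fragments from 88316567 to 88319311, against 6 in the body (88292579 to 88294840). Runs at least as long held 0.644% of all fragments for the flank run and 3.15% for the body run. Runs here and at the other genes used all fragments, with no minimum of reads. In the run of 10, the fragment at 88317488 to 88317564 held 1, 0 and 5 reads. With 1 Dam-Lamin A and 0 Dam-Lap2b reads a fragment is past 1 (1.06), while the reverse is not past −1 (−0.94). In GRCm38 the genes next above Lmna are Mex3a, Rab25 and Lamtor2, and those next below are Sema4a, Slc25a44 and Pmf1. In the opposite direction the body's lowest fragment (88302885 to 88302942, −2.94) held 0, 7 and 25 reads.

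At Tmpo the log2 ratios of the Dam-Lamin A profile fell further below their flanks than those of the Dam-Lap2b profile. In the 3 lowest 5 kb segments of the body the Dam-Lamin A profile averaged −2.91, −2.67 and −2.74, against −1.32 in the flanks. The Dam-Lap2b profile averaged −1.71, −1.90 and −1.07 there, against −0.97 in the flanks. In reads per kb, however, the Tmpo body held 1.68 times its flanks in the Dam-Lap2b library and 1.12 times in the Dam-Lamin A library. The reference held 1.81 times, so a Dam-Lap2b ratio below its flanks does not show few Dam-Lap2b reads. From 90625000 to 90634999 the sign turned, with segment differences of 0.46 and 0.31. The gene is on the minus strand in the RefSeq table, so its starts lie toward the upper end.

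The most read Dam-Lap2b fragments of Tmpo were also the most read reference fragments. The fragment at 90617705 to 90619334 held 23 Dam-Lamin A, 246 Dam-Lap2b and 524 reference reads, and that at 90621689 to 90622613 held 31, 198 and 330. A run of 9 neighbouring fragments below −1 covered 90620123 to 90624404, 4.28 kb, with 112, 566 and 1067 reads. Runs at least as long held 0.364% of all fragments. The 3 fragments with the lowest differences, however, were in the flanks. The lowest lay at 90648986 to 90649563, with −4.74 and 0, 27 and 59 reads. The mean difference of the body was −0.46 without the 3 fragments with the most Dam-Lap2b reads and −0.57 without the 3 with the most Dam-Lamin A reads.

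At Lmnb1 the difference changed sign along the body. Its segments ran from a difference of 0.76 in the lowest 5 kb to −1.37 between 56892000 and 56896999. A run of 9 fragments above 1 lay at 56901291 to 56903459, with 382 Dam-Lamin A, 32 Dam-Lap2b and 245 reference reads. Runs at least as long held 0.943% of all fragments. Its fragment at 56901772 to 56902598 held 255, 12 and 138 reads and was above the reference in the Dam-Lamin A profile, at 0.97. Differences of up to 4.87 (56868362 to 56868658, with 27, 0 and 94 reads) and down to −4.94 (56886967 to 56887456, with 0, 31 and 76 reads) occurred in the body.

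**Figure D4:**
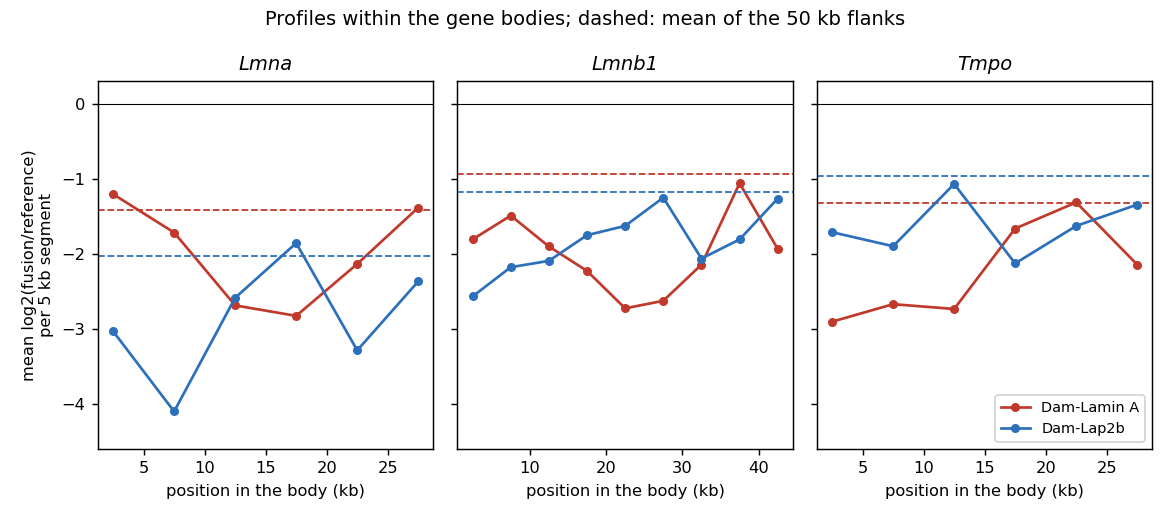
Mean log2(fusion/reference) per 5 kb segment of each gene body (vertical axis) against position from the lower-coordinate end in kb, for the Dam-Lamin A (red) and Dam-Lap2b (blue) profiles; dashed lines are the means of the 50 kb flanks, and segments with under 5 fragments are left out. The lines cross within each body, and the Dam-Lap2b profile falls furthest below its flank mean in the second segment of Lmna, at −4.10.

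Fragments above the reference at the edges of Lmnb1 and Tmpo were singled out after their values were seen. At the lower edge of the Lmnb1 body, the fragments at 56866997 to 56867654 and 56867725 to 56868081 had Dam-Lamin A values of 2.48 and 2.89. They rested on 20 and 13 Dam-Lamin A reads over 3 and 1 reference reads, with 0 Dam-Lap2b reads in both. In the upper part of the Tmpo body, the fragments at 90633672 to 90634167 and 90634171 to 90634638 had Dam-Lamin A values of 2.67 and 2.08. They rested on 11 and 15 Dam-Lamin A reads over 1 and 3 reference reads, again with 0 Dam-Lap2b reads. By value, though not by position, only a fragment of 23 bp (56902869 to 56902891, 2.54) of the Lmnb1 body fell between the former pair. The latter pair were the highest values of the Tmpo body.

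Whether cassette sequence contributed reads at Lmna or Tmpo was not tested, since exon positions in mm9 were not used here.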

How the data were processed

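In all, 2 log2 profiles and 2 domain lists were used, 1 of each for Dam-Lamin A and Dam-Lap2b. Reads were aligned to mm9 with Bowtie, per the submitters' processing notes; the version, counting, normalization and domain caller were not given in the sources used here. The authors deposited 1 log2 value per fragment with no header. From the values, these have the form of a constant (0.085 and 0.022) plus log2((fusion reads + 1)/(reference reads + 1)); the reference was taken to be the Dam-only library, which no header or label states. The deposited lists hold domain starts and ends, a measure of another kind with no score. Starts were raised by 1 to count from 1.

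The lowest integers that fitted the pair of values were sought with reference terms up to 5000, were found for 99.9957% of fragments and were taken as reads (lower bounds). This step was tested on simulated data. A fragment belonged to a zone when its middle lay in it. Bins of 10 kb needed at least 5 fragments. Named fragments were the 3 highest and 3 lowest differences per gene among those with at least 20 reads, of which the text gives some; others were named for their reads, their place in a run or values above the reference. Groups were compared as values without a test. Alternatives covered averaging, fragment filters, summed reads, centring and window sizes. An exon comparison and other envelope genes were left out, since no mm9 annotation was used here. The members and lists were chosen with earlier results of these data known. Python 3.11.15, numpy 2.4.6 and pandas 2.3.3 were used.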

Additional observations from a re-analysis of the deposited data

How the results depend on the processing

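Of 162 alternatives tried on 27 results, 151 counted as unmoved. A value was unmoved within the spread (1 SD over fragments, for want of replicates), a count within 1.5 times and a distance if unchanged. That SD is larger than the difference between the profiles at each gene, so such a difference could change sign and still count as unmoved. Subtracting the genome-wide median leaves a body minus its surroundings unchanged by construction. The 151 are therefore no measure of how stable the differences are. All 48 alternatives for the level of a body and all 54 for a body minus its surroundings stayed below 0. The difference between the profiles ran from 0.67 to 1.06 at Lmna and from −0.98 to −0.39 at Tmpo. At Lmnb1 it ran from −0.28 to 0.14 and was above 0 in 3 of 8 alternatives. Leaving out the 3 most read fragments, an alternative chosen after seeing the data, gave 0.72 to 0.97 at Lmna, −0.08 to −0.02 at Lmnb1 and −0.57 to −0.46 at Tmpo. Domains called with 1 rule from 10 kb bins were the nearest at 985 kb (Dam-Lamin A) and 1075 kb (Dam-Lap2b) from Lmna, at 387 and 377 kb from Lmnb1 and at 102 kb in both from Tmpo, the cause of the shift not being tested. With at least 50 reads per fragment, fewer fragments being tested, the counts at Lmnb1 fell from 62 to 35 above 1 and from 62 to 36 below −1. These were 22.6% and 23.2% of the 155 fragments tested there, against 18.3% and 26.3% of all. At Tmpo the count above 1 fell from 25 to 14, or 9.21% of 152, against 18.3% of all. With no minimum the counts above 1 rose to 99 of 352 at Lmnb1 (28.1%) and 52 of 313 at Tmpo (16.6%), against 23.2% of all. The difference was above 1 in 41.0% of Lmna fragments with at least 50 reads, against 18.3% of all. No paired analysis was possible because each group had 1 sample, and for the same reason no replicate could be left out. A few reads per fragment limit the values of single fragments.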
